A study of Mus musculus with 4 samples.

Results

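The conventional dendritic cells of type 2 (cDC2) and the macrophages of a mouse mammary tumour were compared gene by gene, from the 2 libraries of the series that carry those labels out of 4. A gene was compared when its value was at least 10 CPM (the read count relative to library size, as scaled by the authors) in the higher of the 2 libraries, which held for 8141 of the 13976 genes in the table. Both populations were isolated by sorting from EO771 tumours, which derive from an established mammary carcinoma line of the mouse, and their RNA was sequenced in bulk. The label of the cDC2 library gives CD11b+ cDC2 as its cell type, and that of the other library gives macrophage. The remaining 2 libraries hold CD103+ cDC1 and a CD103int CD11b+ DC population, and their values are given only as context. No label states the mouse strain, the animals' age, how the sort was gated, how many mice stand behind a library, or whether the mice had received the heterodimeric interleukin-15 of the study's title. Each population had 1 library, so that no difference was checked against replicate error and no test was possible.

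Conventional DC arise from dedicated bone marrow precursors, and the type 2 cells among them take up antigen and present it on MHC class II, mainly to CD4+ T cells. Tumour macrophages come largely from blood monocytes that enter the tissue and lose monocyte genes as they mature, and monocytes can also give rise to cells that carry CD11c and MHC class II, so that the surface phenotypes overlap. Type I interferons act on nearly all cells through a common receptor and switch on a shared set of antiviral genes, whose messages mark recent exposure.

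The libraries differed in more than the cell type. The estimated depth was 44940500 reads for cDC2 and 63817500 for macrophages, and a level of 10 CPM stood for 464 and 546 reads, or a counting error of 4.64% and 4.28%. Gene models that collect ribosomal RNA (Gm26917 and Gm42418) held 5.94% of the cDC2 column and 11.3% of the macrophage column, and protein-coding genes held 80.7% and 76.9%. The macrophage column also carries another name prefix than the 3 DC columns. What that prefix stands for is not stated, and it cannot be told apart from the cell type. The part of either in the differences was not tested. In bulk RNA, moreover, fewer cells of a kind and less of a message per cell cannot be told apart.

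Differences are given as log2(CPM + 1) in cDC2 minus macrophages, a scale on which changes of weakly expressed genes are compressed. A 2-fold or 4-fold difference means at least 1 or 2 on that scale. Where a gene reached 10 CPM in only 1 of the 2 libraries, its direction as deposited followed from that minimum. Folds of single genes are ratios of CPM, and the range after a fold is its 95% interval from counting error alone. Over all 8141 genes the median was -0.09 with the columns as deposited and 0.17 with both columns scaled to equal totals, a shift of 0.26. Directions smaller than this shift depend on the scaling, and lists are read here beside these medians.

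The profiles were close, since 92.2% of the genes compared lay within 2-fold. At least 4-fold higher in cDC2 were 20 genes (0.246% of those compared), and 46 were at least 4-fold lower (0.565%). At least 2-fold higher were 145 genes (1.78%) and lower 489 (6.01%), so that 22.9% of the genes past 2-fold were on the cDC2 side. With equal totals the 4-fold counts were 35 (0.43%) and 29 (0.356%) and the 2-fold counts 348 (4.27%) and 238 (2.92%), and the cDC2 side held 59.4%. The split between directions therefore turned with the scaling, and the counts of the main classes below are given under both. These shares over all genes are the background of every list count below.

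**Figure D1:**
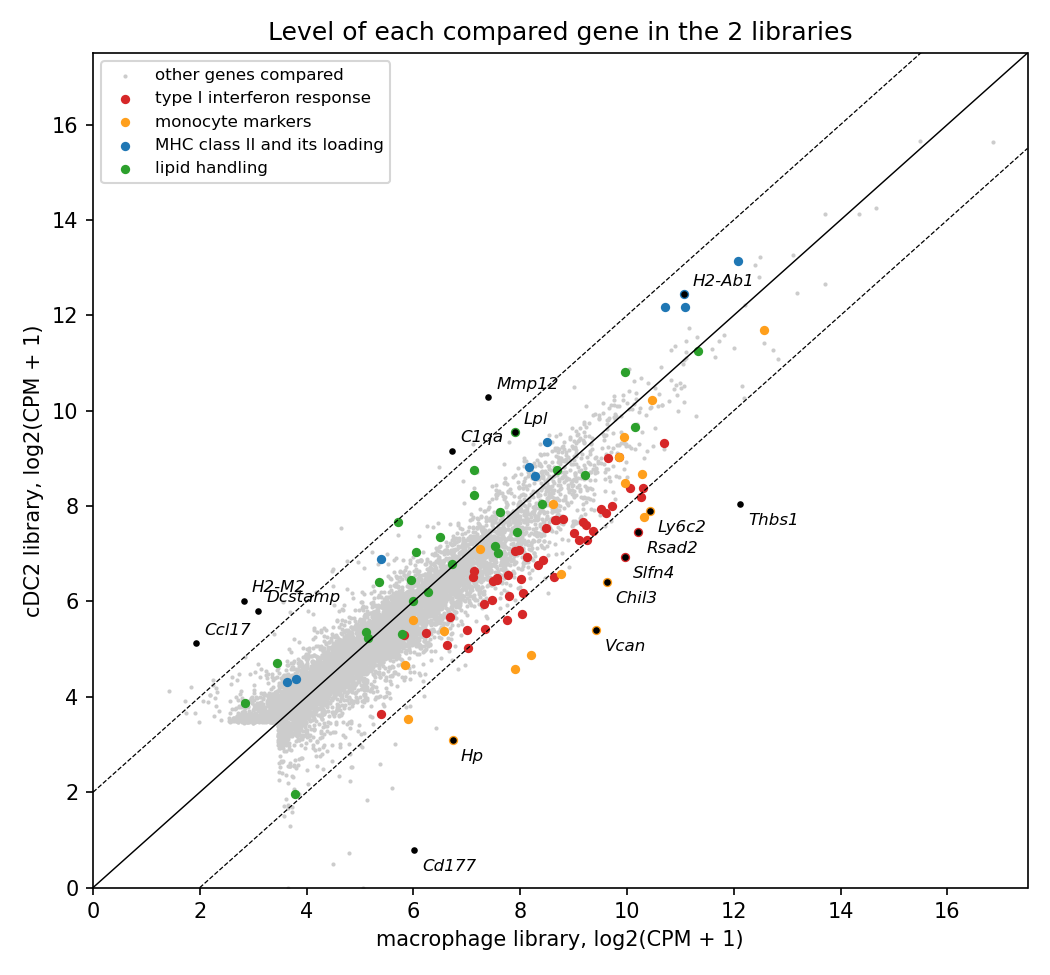
Level of each of the 8141 compared genes in the macrophage library (x axis) and the cDC2 library (y axis), both in log2(CPM + 1). The solid line marks equal levels and the dashed lines a 4-fold difference. Type I interferon response genes (red) and monocyte markers (orange) lie below the line of equality, MHC class II genes (blue) above it, and lipid handling genes (green) on both sides.

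Markers of the labelled cell types were present in both libraries and did not part them. Among the defining cDC2 genes, the integrin gene Itgam (CD11b) was at 638 CPM in cDC2 and 945 CPM in macrophages, and the inhibitory receptor gene Sirpa at 1062 against 1212 CPM. Irf4, a transcription factor of cDC2, was at 37.96 against 49.9 CPM, while the lectin gene Mgl2 was 3.06-fold (2.97 to 3.14) higher in cDC2 and its relative Cd209a 2.19-fold (2.06 to 2.32) lower. Of the 18 cDC2 markers compared, 2 were higher and 2 lower by at least 2-fold, with a median of -0.10 that became 0.17 at equal totals, close to the medians of all genes. Flt3, the receptor of the DC growth factor, was at 15.8 against 32.6 CPM and the DC transcription factor gene Zbtb46 at 22.01 against 20.9 CPM. The gene of the CD11c integrin chain, Itgax, stood apart from the other pan-DC markers at 1438 against 516 CPM, and of 11 such markers it was the 1 that was at least 2-fold higher, against 2 lower (Btla and Flt3). At equal totals neither of these was 2-fold lower.

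Macrophage genes were well expressed in the library labelled cDC2. Adgre1, which codes for a surface antigen by which macrophages are stained, was at 262 CPM in cDC2 and 335 CPM in macrophages, Csf1r, the receptor of the macrophage growth factor, at 1096 against 1538 CPM, and Fcgr1 (CD64) at 334 against 608 CPM. The macrophage transcription factor gene Maf was at 148 against 231 CPM, and the efferocytosis receptor gene Mertk ran the other way at 32.6 against 17.6 CPM. None of the 16 macrophage markers compared was at least 2-fold lower in cDC2, at either scaling. The 3 genes C1qa, C1qb and C1qc were at least 2-fold higher, and the median was -0.40, or -0.13 at equal totals. Neither library was thus free of the other's markers, and cDC2 and macrophage below stand for the libraries with those labels.

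Genes of the type I interferon response were the largest class on the macrophage side. Of 48 members compared, 37 were at least 2-fold lower in cDC2 and 0 higher, where 6.01% and 1.78% of all genes were. The median difference was -1.56, and the members ranged from -3.03 to -0.49, so that all 48 lay below 0. At equal totals all 48 still lay below 0, 30 were at least 2-fold lower and the median was -1.29.

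The members with the lowest differences serve unlike functions. Slfn4, a Schlafen gene of monocytes and macrophages, was at 12.3, 121, 72.7 and 991 CPM in cDC1, cDC2, CD103int DC and macrophages, a level in cDC2 8.22-fold (7.997 to 8.45) below that of macrophages. Rsad2 codes for viperin, an enzyme that stops the copying of viral RNA, and was at 73.9, 174, 123 and 1184 CPM in the same order, 6.81-fold (6.65 to 6.97) lower in cDC2 than in macrophages. The macrophage library was the highest of the 4 for both genes. Mx1, a GTPase that blocks viral nucleocapsids, was at 30.6, 47.9, 31.2 and 214 CPM, and Cmpk2, a nucleotide kinase that lies beside Rsad2, at 28.4, 90.2, 62.04 and 396 CPM. Isg15, a ubiquitin-like modifier, was at 77.8, 156, 101 and 551 CPM, and Usp18, the protease that removes it, at 124, 93.1, 69.98 and 218 CPM.

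Families of interferon-induced effectors were mostly at least 2-fold lower. These families were assembled by symbol after the values had been seen, and they share members with the type I list. The Ifit genes, whose proteins bind foreign RNA, had 5 of 5 compared members at least 2-fold lower at either scaling, from -2.29 for Ifit1bl1 to -1.88 for Ifit3. Ifit2 was at 158, 289.9, 189 and 1233 CPM, and Ifit3 at 78.98, 178, 113 and 657 CPM. The Trim30 family had 4 of 4 lower at either scaling, with Trim30c at 15.3 against 72.03 CPM and Trim30a at 202 against 579 CPM. Of the 7 Schlafen genes 4 were at least 2-fold lower, again at either scaling, and the others (Slfn1, Slfn3 and Slfn2) had differences of -0.84, -0.72 and -0.62. Among the 2′-5′ oligoadenylate synthetase genes, which arm an RNA-degrading pathway, 4 of 6 were at least 2-fold lower and 3 at equal totals, led by Oas3 at 230.3 against 782 CPM. All compared Ifit and oligoadenylate synthetase genes stand in the type I list, as do Slfn1, Slfn4, Slfn5, Slfn8, Trim30a and Trim30d. For these genes the family counts repeat the count of that list. Families of this kind hold similar sequences, and how reads that fit several members were counted is not given in the sources used here.

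Sensor genes lay near the median of the list, and the genes of signalling lay above it. The cytosolic RNA sensor genes Ifih1 (MDA5) and Ddx58 (RIG-I) were at 172 against 511 CPM and 116 against 344 CPM, and Zbp1, a sensor of Z-form nucleic acid, was at 120.3 against 279 CPM. Irf7, the transcription factor that amplifies interferon output, was at 473, 636, 366 and 1648 CPM. Stat2 and Irf9, whose products carry the interferon signal to the nucleus, showed smaller differences, of -0.93 and -0.49. The receptor chain genes Ifnar1 and Ifnar2 had differences of -0.68 and -0.22, and Tmem173 (STING), Mavs and Irf3 had ones of -0.17, -0.02 and 0.08. Of 21 interferon receptor and regulator genes compared, 2 were at least 2-fold lower (Irf7 and the kinase gene Jak2, at 129 against 306 CPM) and 0 higher. The median of that list was -0.57, or -0.31 at equal totals.

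Genes best known for their response to interferon gamma lay mostly on the macrophage side, by less than the type I list. Of 24 compared, 18 lay below 0 and 6 above, or 16 and 8 at equal totals. At least 2-fold lower in cDC2 were 6 (25%, beside 6.01% of all genes), and 2 were higher (8.33%, beside 1.78%). The median was -0.71. At equal totals 2 were lower and 2 higher, and the median was -0.44. On the lower side were the guanylate-binding protein genes Gbp5 (107 against 264 CPM), Gbp7 (103 against 248 CPM) and Gbp9 (83.8 against 195 CPM) and the GTPase gene Ifi47 (138 against 349 CPM). The higher members were Gbp2b (11.7 against 2.77 CPM) and Nos2, the inducible nitric oxide synthase (41.4 against 19.6 CPM). Ciita and Cxcl9, which interferon gamma induces strongly, were at 395 against 309 and 343 against 276 CPM, a difference of 0.35 and 0.31.

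The promoters of these genes are given as description only. Both interferon lists were made of genes known to respond to interferon. A high share with the site searched here was thus built in and says nothing about the 2 libraries. The interferon-stimulated response element is the site bound by the factor complex that type I interferon activates, which holds STAT2 and IRF9, and its core was searched as GAAANNGAAA on both strands of RefSeq promoter windows (GRCm38.p6, from 250 bases before to 50 after each gene start). Of the 36 type I response genes with an entry, 22 (61.1%) held the core, as did 12 of 16 interferon gamma response genes with an entry (75%), beside 3.99% of all 27025 genes in the promoter table. The stretches of the 6 type I response genes with the lowest differences among those that held a match are printed 5′ to 3′ on the gene's strand, with the matched letters in capitals in whichever orientation they occur.
Rsad2: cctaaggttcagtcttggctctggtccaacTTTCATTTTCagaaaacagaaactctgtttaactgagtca
Ifit1bl1: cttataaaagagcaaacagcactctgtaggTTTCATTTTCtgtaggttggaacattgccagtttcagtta
Cxcl10: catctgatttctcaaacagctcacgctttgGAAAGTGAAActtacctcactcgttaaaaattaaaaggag
Slfn5: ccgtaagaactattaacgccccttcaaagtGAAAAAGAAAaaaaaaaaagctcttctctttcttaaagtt
Ifit3b: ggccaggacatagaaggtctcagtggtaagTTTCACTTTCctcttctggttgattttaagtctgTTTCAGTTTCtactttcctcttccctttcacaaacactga
Ifit1: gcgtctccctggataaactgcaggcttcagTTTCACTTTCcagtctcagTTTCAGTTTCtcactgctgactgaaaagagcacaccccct
They lie at chr12:26456533-26456602 (minus strand) for Rsad2, chr19:34602033-34602102 (minus strand) for Ifit1bl1, chr5:92349063-92349132 (minus strand) for Cxcl10, chr11:82951917-82951986 (plus strand) for Slfn5, chr19:34607739-34607842 (plus strand) for Ifit3b and chr19:34640755-34640843 (plus strand) for Ifit1. Ifit3b and Ifit1 held 2 matches each and the others 1. Ifit1bl1 had a second window with a match, not shown. The match in Slfn5 borders a run of A. The genes behind these stretches were at 52.5 against 261 (Ifit1bl1), 155 against 605 (Cxcl10), 329.8 against 1267 (Slfn5), 41.6 against 161 (Ifit3b) and 70.96 against 263 CPM (Ifit1) in cDC2 and macrophages.

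The core was also looked at across all genes compared that had a promoter entry, a description added after the values were seen. Of 289 entries with the core, 50 (17.3%) were at least 2-fold lower in cDC2, beside 295 of 6070 (4.86%) without it. Among the 255 entries with the core that stood in neither interferon list, 28 (11%) were at least 2-fold lower. At equal totals these counts were 36, 127 and 19. Within the type I list, 18 of 22 genes with the core and 9 of 14 without it were at least 2-fold lower. Slfn4, Ifit2, Irf7 and Cmpk2 held no match in their windows, which says only that these letters are absent there.

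Monocyte genes were the other large class on the macrophage side. Of 20 markers compared 13 (65%, beside 6.01% of all genes) were at least 2-fold lower in cDC2 and 0 higher. The median was -1.53, and at equal totals 11 were lower with a median of -1.26. All 20 lay below 0 as deposited, and 2 turned above 0 at equal totals. Genes of classical monocytes were among the lowest. Ly6c2, the gene of the Ly6C surface antigen, was at 233, 236, 132 and 1371 CPM in cDC1, cDC2, CD103int DC and macrophages, 5.81-fold (5.698 to 5.93) lower in cDC2 than in macrophages. Chil3, a secreted chitinase-like protein, was at 1.33, 83.4, 78.5 and 788 CPM, Plac8 at 486, 218, 128 and 1276 CPM, and Hp, which codes for haptoglobin, at 0.0612, 7.55, 3.66 and 105 CPM. Macrophages had the highest value of the 4 libraries for each of these genes.

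Genes known from nonclassical, patrolling monocytes, which had no list of their own, differed by unlike amounts. Ace, angiotensin-converting enzyme, was at 4.99, 93.8, 19.1 and 433 CPM, 4.61-fold (4.47 to 4.77) lower in cDC2 than in macrophages. Nr4a1, a nuclear receptor that nonclassical monocytes need and that is also an immediate early gene, was at 409 against 1236 CPM, Treml4 at 24.4 against 56.4 CPM and the fractalkine receptor gene Cx3cr1 at 40.4 against 94.5 CPM. At equal totals Ace and Nr4a1 were still at least 2-fold lower, while Treml4 and Cx3cr1 had differences of -0.91 and -0.94. Spn (CD43) and Cd300e differed by -0.15 and -0.38, or 0.12 and -0.11 at equal totals. Ccr2, the receptor by which classical monocytes leave the marrow, was at 701 against 978 CPM, a difference of -0.48. The Ms4a membrane protein family followed the monocyte genes, with 5 of 8 compared members at least 2-fold lower (4 at equal totals), among them Ms4a4a (59.4 against 214 CPM) and Ms4a4c (359 against 990.3 CPM). Ms4a7, a gene of mature macrophages, was the 1 member above 0, at 114 against 75.2 CPM.

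Secreted matrix and clotting genes were among those with the lowest differences. Thbs1 codes for thrombospondin 1, a matrix glycoprotein that activates latent TGF-beta and restrains vessel growth (chromosome 2, 118111876 to 118127133, plus strand, with Gm29233 on the opposite strand over the same exons). It was at 17, 261, 336 and 4453 CPM in cDC1, cDC2, CD103int DC and macrophages, so that macrophages were 17.1-fold (16.8 to 17.4) above cDC2 and the highest of the 4. Vcan, the large matrix proteoglycan versican (chromosome 13, 89655312 to 89742509, minus strand), was at 1.43, 41.4, 60.6 and 685 CPM, 16.6-fold (15.8 to 17.3) lower in cDC2 than in macrophages. F13a1, the clotting factor that crosslinks fibrin (chromosome 13, 36867178 to 37050244, minus strand), was at 2.59, 23, 53.5 and 237 CPM. F5, clotting factor V, was at 0.265, 0.4096, 5.24 and 21.4 CPM, and its level in cDC2 rested on 19 estimated reads. F7, clotting factor VII, was on the other side at 15.04, 113, 123 and 30.2 CPM, 3.74-fold (3.54 to 3.95) higher in cDC2 than in macrophages. The matrix gene Fn1 (fibronectin) and Tgfbi differed little, at 1195 against 1422 and 2185 against 2199 CPM. Of 21 matrix and wound genes compared, 4 were at least 2-fold lower and 3 higher (4 and 5 at equal totals). F5, F13a1 and Thbs1 overlap genes on the opposite strand, and whether the counting used strand is not given in the sources used here.

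Several genes known from neutrophils were lower in cDC2. Cd177, a surface glycoprotein of neutrophils (chromosome 7, 24743983 to 24760311, minus strand), had the lowest difference of all protein-coding genes at 1.63, 0.733, 1.06 and 63.7 CPM, 86.9-fold (62.1 to 126) lower in cDC2 than in macrophages. Slpi, an inhibitor of leukocyte proteases, was at 1.18, 3.28, 1.498 and 47.5 CPM, and Hdc, the enzyme that makes histamine in mast cells, basophils and neutrophils, at 0.0612, 7.11, 5.99 and 49.2 CPM. Hdc was 1 of 3 mast cell and basophil markers compared. Cd200r3 (11.6 against 2.36 CPM) and Kit (12.1 against 10.2 CPM) of that list lay on the cDC2 side. Padi4, the enzyme that citrullinates histones in neutrophils and a gene chosen after its values were seen, was at 1.98 against 12.3 CPM. Of the neutrophil marker list, 7 of 16 genes were in the table and their summed level was 173 against 381 CPM. The 4 that could be compared were Csf3r (62.2 against 157 CPM), Mmp8 (4.85 against 11.9 CPM), Acod1 (69.98 against 149 CPM) and Trem1 (30.8 against 59.8 CPM), and monocytes also express them. Of these 3 were at least 2-fold lower, and at equal totals 1, Csf3r. Below 10 CPM in both libraries, Mmp9 (3.19 against 0.788 CPM) and Cxcr2 (1.703 against 1.25 CPM) lay on the cDC2 side and G0s2 (0.323 against 2.42 CPM) on the macrophage side. The 9 listed genes outside the table, S100a8, S100a9 and Ly6g among them, were not analysed here, and the part of neutrophil RNA in these differences was not tested.

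**Figure D2:**
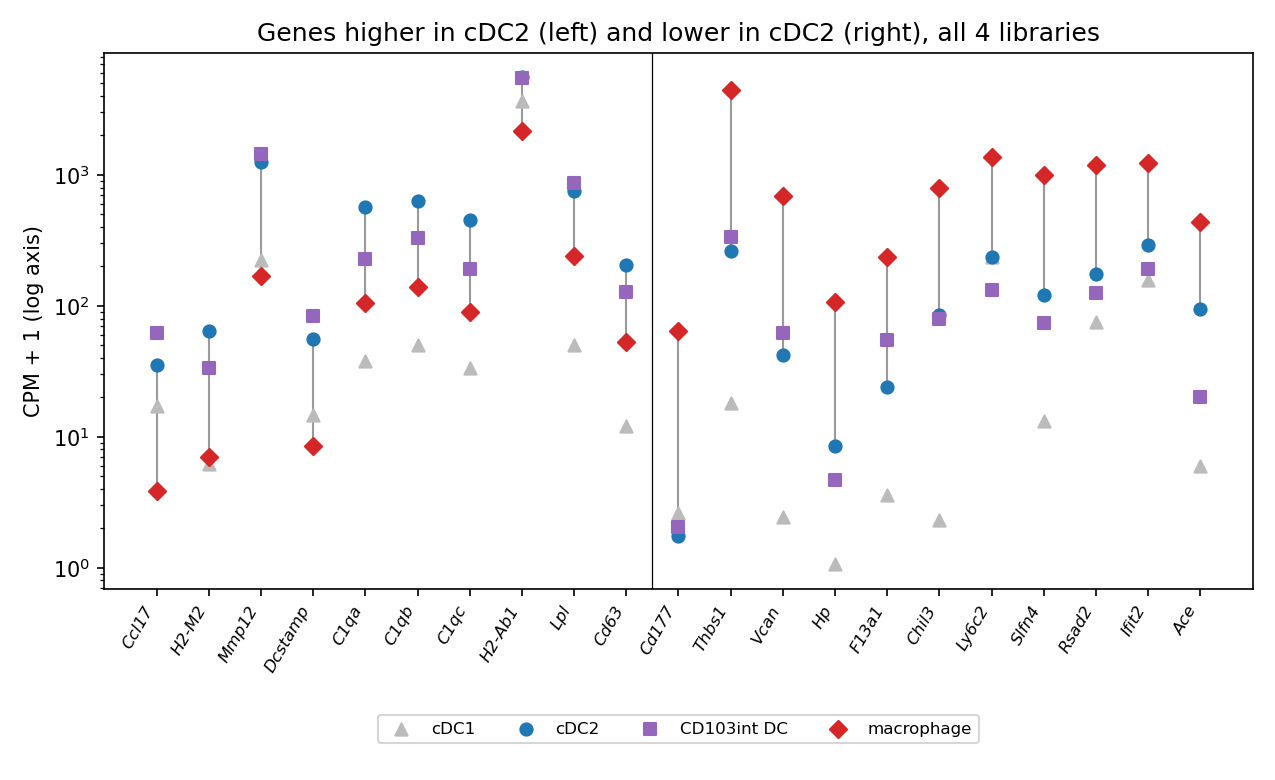
Levels of 21 genes in all 4 libraries, as CPM + 1 on a log axis, for 10 genes higher in cDC2 than in macrophages (left) and 11 lower (right); grey lines join the cDC2 circle and the macrophage diamond. The macrophage diamond is the highest of the 4 symbols for all 11 genes on the right, and for the genes on the right the CD103int DC squares lie nearer to cDC2 than to macrophages.

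On the cDC2 side, MHC class II genes stood together. Of 10 genes compared 5 (50%, beside 1.78% of all genes) were at least 2-fold higher and 0 lower. The median was 0.95, and at equal totals 6 were higher with a median of 1.22. All 10 lay above 0 at both scalings. The chains of the classical molecules were at 3659.9, 5553, 5454 and 2146 CPM for H2-Ab1, 3076, 4601, 4236 and 2172 CPM for H2-Aa and 2891, 4608, 4371 and 1680.0 CPM for H2-Eb1 in cDC1, cDC2, CD103int DC and macrophages. In each case macrophages had the lowest level, and cDC2 was 2.59-fold (2.57 to 2.605), 2.12-fold (2.104 to 2.13) and 2.74-fold (2.72 to 2.76) above them. Cd74, the invariant chain that guides the molecules to the endosome, was at 9057 against 4334 CPM. Among the genes of peptide loading, H2-DMb2 was at 117 against 41.3 CPM, H2-DMb1 at 645 against 359.7 CPM and H2-DMa at 449 against 285 CPM. H2-Ob, a chain of the molecule that restrains loading, was at 19.7 against 12.9 CPM. Ciita, the coactivator that drives the class, differed less, by 0.35. H2-DMb1 and H2-DMb2 are near copies, and reads may have been split between them.

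MHC class II promoters carry a compact array of elements upstream of the start, of which the Y box holds the letters CCAAT and is bound by the factor NF-Y. All 7 genes of the list with a promoter entry held CCAAT on either strand, beside 41.1% of all genes in the table, a high share because the motif is short. The stretches of 4 of these genes are printed on the gene's strand, with CCAAT or its reverse ATTGG in capitals.
H2-DMb2: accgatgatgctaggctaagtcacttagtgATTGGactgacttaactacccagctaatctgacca
H2-Eb1: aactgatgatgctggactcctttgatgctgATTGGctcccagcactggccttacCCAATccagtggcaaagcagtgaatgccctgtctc
H2-Aa: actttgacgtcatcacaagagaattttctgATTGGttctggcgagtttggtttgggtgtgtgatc
H2-DMb1: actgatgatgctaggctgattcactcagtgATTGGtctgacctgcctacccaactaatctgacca
They lie at chr17:34145129-34145193 (plus strand) for H2-DMb2, chr17:34305778-34305866 (plus strand) for H2-Eb1, chr17:34287837-34287901 (minus strand) for H2-Aa and chr17:34153100-34153164 (plus strand) for H2-DMb1. H2-Eb1 held 2 matches and the others 1, and none of the 7 genes held the interferon response core searched above.

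MHC class I genes did not follow. None of 20 compared was past 2-fold in either direction at either scaling, and the median was -0.18, or 0.09 at equal totals. B2m, the common light chain, was at 2147 against 2139 CPM, and the heavy chain gene H2-K1 at 2016 against 2107 CPM. The lowest were Nlrc5 (167 against 331 CPM), the coactivator of the class, and H2-T22 (244 against 384 CPM), and the highest Calr (1060.0 against 812 CPM), the chaperone calreticulin. H2-M2, a nonclassical class I gene that was on no list (chromosome 17, 37480851 to 37483552, minus strand), was by contrast at 5.16, 63.6, 32.2 and 6.07 CPM, 10.5-fold (9.36 to 11.8) higher in cDC2 than in macrophages.

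Complement C1q genes were higher in the library labelled cDC2, although they are counted among macrophage markers. C1qa (chromosome 4, 136895917 to 136898803, minus strand), C1qb (chromosome 4, 136880129 to 136886187, minus strand) and C1qc (chromosome 4, 136889804 to 136893065, minus strand) lie side by side and code for the A, B and C chains of the molecule that starts the classical pathway. C1qa was at 36.7, 572, 228 and 105 CPM, C1qb at 49.1, 631, 328 and 137 CPM and C1qc at 32.4, 450.5, 191 and 88.4 CPM in cDC1, cDC2, CD103int DC and macrophages. In all 3 genes the order was cDC2, CD103int DC, macrophages and cDC1 from high to low, and cDC2 was 5.47-fold (5.32 to 5.63), 4.59-fold (4.48 to 4.71) and 5.09-fold (4.94 to 5.26) above macrophages. Per kilobase of exon their levels were 550.1 against 101, 579.9 against 126 and 233 against 45.8 CPM, so that C1qc had the lowest level of the 3 in both libraries. C1ra, a protease gene of the same pathway, was at 20.9 against 8.502 CPM.

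Other complement genes lay on both sides. C3, the central component, was at 565 against 1328 CPM, 2.35-fold (2.32 to 2.38) lower in cDC2, a difference of -1.23 that became -0.96 at equal totals. Cfb, of the alternative pathway, was at 412 against 679 CPM, and Cfp (properdin), which stabilises that pathway's convertase, was on the same side as C1q at 385 against 210.3 CPM, a difference of 0.87, or 1.14 at equal totals. The receptor genes C3ar1 and C5ar1 differed by -0.22 and -0.41. Over 16 complement genes 5 were at least 2-fold higher (the C1q genes, C1ra and Itgax, a chain of a complement receptor) and 2 lower, and at equal totals 6 and 1. The median was near 0, or 0.27 at equal totals.

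Genes of lipid handling lay on both sides, with more of those past 2-fold on the cDC2 side. The list also holds Cd63, Cd9, Acp5, Ctsb, Ctsl and Lgals3, which are not genes of lipid uptake or storage as such. Of 27 compared 7 (25.9%, beside 1.78% of all genes) were at least 2-fold higher and 1 (3.7%, beside 6.01%) lower. The median was 0.08, and at equal totals 10 were higher, 1 was lower and the median was 0.34. Lpl, the lipase that frees fatty acids from lipoproteins, was at 49.3, 748, 859.8 and 239 CPM in the 4 libraries, 3.13-fold (3.06 to 3.19) higher in cDC2 than in macrophages. Cd63, a tetraspanin of late endosomes, was at 11.1, 202, 127 and 51.6 CPM, and Pltp, which moves phospholipid between lipoproteins, at 431 against 139 CPM. Trem2, a receptor for lipids and apoptotic cells, was at 25.01 against 9.84 CPM, and Lipa, the lysosomal acid lipase, at 301 against 140.1 CPM. The lower member was Apoc2, a cofactor of Lpl, at 2.89 against 12.8 CPM. Trem2 and Ch25h (13.5 against 6.16 CPM) reached 10 CPM only in cDC2, and Apoc2 only in macrophages, so their directions followed from that minimum. Gpnmb and Apoe, which are often named with Trem2 and Lpl, were on the macrophage side by -0.56 and -0.47. Plin2 and Soat1 were on that side by -0.56 and -0.37. As deposited 17 members lay above 0 and 10 below, and the list was thus not higher as a whole.

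Mmp12, the elastase of macrophages (chromosome 9, 7344381 to 7369499, plus strand, overlapping Mmp1b on the opposite strand), was at 225, 1249.5, 1447 and 168 CPM, 7.42-fold (7.26 to 7.59) higher in cDC2 than in macrophages. CD103int DC were close to cDC2 for this gene, and cDC1 close to macrophages. Mmp13, a collagenase, was at 75.4 against 25.9 CPM, and the other metalloproteinases past 2-fold were Mmp8 and Mmp19 on the macrophage side, where they did not stay past 2-fold at equal totals. Dcstamp, which codes for a protein needed for the fusion of osteoclasts and giant cells (chromosome 15, 39745930 to 39760938, plus strand), was at 13.6, 54.99, 82.97 and 7.55 CPM. Atp6v0d2, a subunit of the vacuolar proton pump with the same known role, was at 0.245, 17.4, 13.1 and 2.57 CPM, while the remaining 16 subunits of the pump compared were within 2-fold. Acp5 and Ctsk, an acid phosphatase and a cathepsin of osteoclasts, were at 83.9 against 40.2 and 28.7 against 14.8 CPM. Lysosomal genes otherwise lay near the middle, with 2 of 37 at least 2-fold higher (Atp6v0d2 and Lipa), 0 lower and a median of 0.14, or 4, 0 and 0.41 at equal totals.

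Chemokine ligand genes lay on both sides. Ccl17 (chromosome 8, 94810453 to 94812036, plus strand) and Ccl22 code for the ligands of CCR4, found on helper and regulatory T cells. Ccl17 had the largest difference of all protein-coding genes, at 16.3, 34.1, 61.1 and 2.82 CPM in cDC1, cDC2, CD103int DC and macrophages, 12.1-fold (10.2 to 14.3) higher in cDC2 than in macrophages, and CD103int DC were above both. Ccl22 was at 6.63, 18.3, 31.6 and 4.97 CPM. Ccl6, Ccl8 and Ccl24 were also at least 2-fold higher, at 651 against 221, 21.3 against 5.64 and 66.3 against 28.2 CPM, and Ccl9 was at 490.0 against 268 CPM. Lower in cDC2 was Ccl4, at 38.05 against 117 CPM, while the monocyte attractants Ccl2 and Ccl7 and the inflammatory Ccl3 and Ccl5 had differences from -0.97 to -0.56. Of 12 CC ligands compared, 5 were at least 2-fold higher and 1 lower (6 and 1 at equal totals), beside 1.78% and 6.01% of all genes (4.27% and 2.92%). Of the 5, Ccl17, Ccl22 and Ccl8 reached 10 CPM only in cDC2, so their place above 0 followed from that minimum.

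Among CXC ligands, Cxcl10 and Cxcl11, both induced by interferon and ligands of CXCR3, were lower in cDC2 at 155 against 605 and 7.11 against 23.7 CPM. Cxcl9, the third ligand of that receptor, was not, at 343 against 276 CPM. Cxcl16, which is both a chemokine and a scavenger receptor, was higher at 468 against 207 CPM, and Cxcl2, a neutrophil attractant, was level at 172 against 165 CPM. Of the chemokine receptors compared, 1 of 8 was past 2-fold (Cx3cr1, lower) and none at equal totals.

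**Figure D3:**
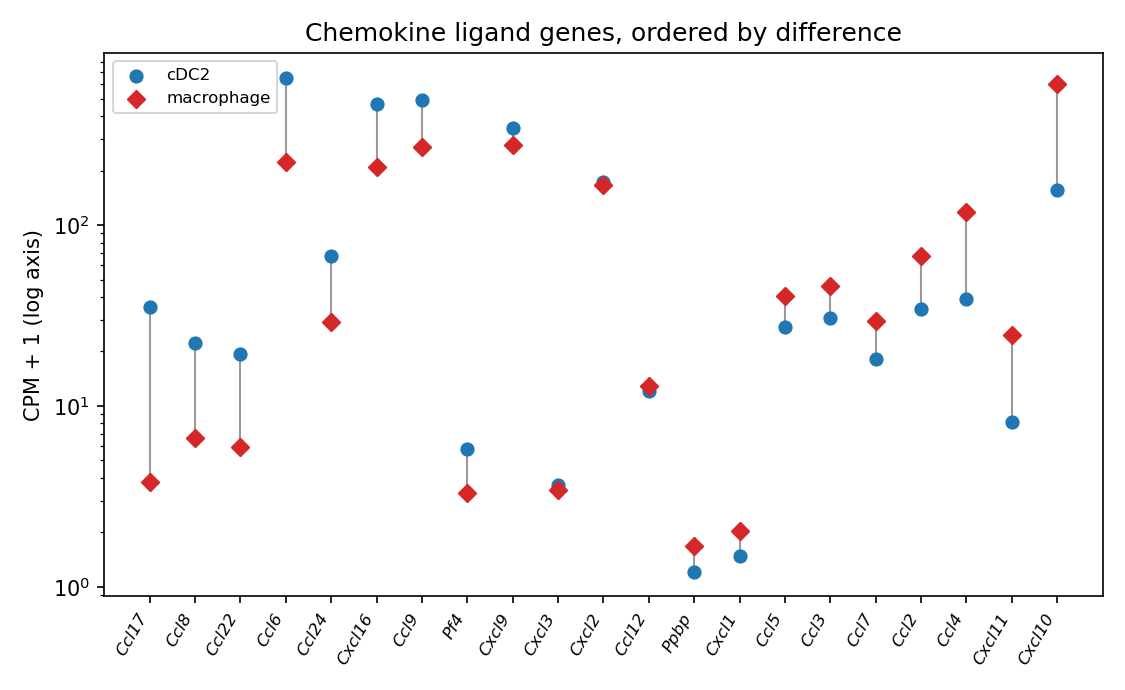
Levels of the chemokine ligand genes in the table, as CPM + 1 on a log axis, in cDC2 (circles) and macrophages (diamonds), ordered from the largest to the smallest difference of log2(CPM + 1). Ccl17 stands at the left end with 34.1 against 2.82 CPM and Cxcl10 at the right end with 155 against 605; genes with both symbols below 10 CPM were not compared.

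Cytokine genes were mostly level or lower in cDC2. Il1b, the gene of the inflammatory cytokine interleukin-1 beta, was at 232, 946, 735 and 2495 CPM in the 4 libraries, and Il18, of the same family, at 1.79, 5.97, 3.83 and 27.2 CPM. Il15, which supports NK and CD8+ T cells, was at 1.22, 6.704, 6.25 and 23.7 CPM, and the chain that presents it, Il15ra, at 5.24, 8.17, 5.695 and 24.6 CPM, both highest in macrophages. Tnf was at 54.3 against 77.3 CPM, and Mif, an abundant inhibitor of macrophage movement, was higher in cDC2 at 109 against 45.1 CPM. Of 20 cytokine genes compared, 3 (15%) were at least 2-fold lower and 1 (5%) higher, beside 6.01% and 1.78% of all genes. At equal totals these were 3 and 2, beside 2.92% and 4.27%. Of 29 receptors 9 (31%) were lower and 0 higher, with a median of -0.49. At equal totals 4 were lower and 1 higher, with a median of -0.22. Among the 9 were Flt1, a VEGF receptor (50.4 against 164 CPM), Il1rap, the shared interleukin-1 receptor chain (14.7 against 46.4 CPM), and Tnfrsf1b, a TNF receptor (392 against 923 CPM). Il21r had the highest difference, at 57.6 against 31.8 CPM. The receptors of the growth factor GM-CSF, Csf2ra and Csf2rb, were at 315 against 315 and 432 against 563 CPM.

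Innate sensors were lower in cDC2 in part. Of 29 pattern receptors and adaptors 8 (27.6%) were at least 2-fold lower and 1 (3.4%) higher, beside 6.01% and 1.78% of all genes. The median was -0.68 (6, 1 and -0.42 at equal totals). Ifih1 and Ddx58, which the interferon list also holds, were among the 8. Casp4, the sensor of cytosolic lipopolysaccharide, was at 30.01 against 101 CPM, Tlr7, a receptor for single-stranded RNA, at 71.8 against 197 CPM, and Cd14, the lipopolysaccharide coreceptor, at 228 against 594 CPM. Tlr4 itself was at 52.4 against 59.5 CPM, and Tlr12, a receptor for profilin, was the higher member at 20.3 against 5.11 CPM. Among C-type lectins, Clec4e (Mincle) and Clec4d, which pair as receptors of mycobacterial glycolipids, were at 88.7 against 353 and 24.9 against 71.1 CPM, whereas Clec4n (dectin-2) was at 514 against 268 CPM and Clec4b1 at 22.7 against 9.82 CPM. Lectins past 2-fold numbered 3 lower and 2 higher of 23, or 2 and 3 at equal totals.

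Molecules that meet T cells showed no common direction. Pdcd1lg2 (PD-L2) was 3.19-fold (3.02 to 3.37) higher in cDC2, at 29.3, 104, 101 and 32.5 CPM in the 4 libraries, while Cd274 (PD-L1) was at 65.8, 216, 138 and 419.8 CPM, lower in cDC2 than in macrophages by less than 2-fold on the log2(CPM + 1) scale. The ligands of CD28, Cd80 and Cd86, were at 34.7 against 63.9 and 131 against 141 CPM, and Cd40 at 86.7 against 136 CPM. Of 23 genes of this kind 2 were at least 2-fold lower (Btla and Lgals9) and 1 higher, or 0 and 2 at equal totals. Genes of mature, migrating DC were at low to moderate levels in both libraries. Ccr7, the receptor that leads DC to lymph nodes, was at 18.3 against 14.4 CPM and Fscn1, the actin bundler fascin, at 14.8 against 13.4 CPM. Of 18 such genes 2 were at least 2-fold higher (Ccl17 and Ccl22) and 2 lower (Il15ra and Marcksl1), at either scaling. Ccl17 and Ccl22 reached 10 CPM only in cDC2, and Il15ra only in macrophages.

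Adhesion genes differed by chain. The integrin alpha chains of the lymphocyte function antigen and of the VCAM-1 receptor, Itgal and Itga4, were lower in cDC2 at 225 against 720.1 and 157 against 438 CPM, as was Itgav, which pairs into receptors for vitronectin and latent TGF-beta, at 128 against 306 CPM. On the other side were Itgax (2.79-fold), the vascular adhesion molecule gene Vcam1 (126 against 44.5 CPM) and Cadm1, an adhesion molecule also known as a cDC1 marker, at 87.6, 73.6, 43.4 and 13.1 CPM in the 4 libraries. The cDC1 markers did not share this direction. Of 10 compared, 1 was at least 2-fold higher (Cadm1) and 1 lower (Ifi205, at 192 against 603 CPM), at either scaling. Their median was -0.11, or 0.16 at equal totals, with 5 above 0 and 5 below as deposited. The common beta chains Itgb2 and Itgb1 were level, at 1328 against 1147 and 400.3 against 412 CPM. In all, 4 of 27 adhesion genes were at least 2-fold higher and 5 lower, or 5 and 3 at equal totals.

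Transcription factor genes leaned to the macrophage side without large differences. Of 46 compared 10 (21.7%, beside 6.01% of all genes) were at least 2-fold lower and 0 higher (5 and 0 at equal totals). The median was -0.46, or -0.20 at equal totals. The lowest were Nr4a1, Id3 (5.76 against 18.1 CPM), an inhibitor of helix-loop-helix factors, Ets2 (215 against 554 CPM) and Ahr (62.8 against 162 CPM), the receptor of dioxin and tryptophan products. Spi1 (PU.1) and Irf8, which direct the myeloid lineage, were at 387 against 439.7 and 226 against 268 CPM. Immediate early and NF-kappaB feedback genes, which respond within minutes to stimulation, had 9 of 34 (26.5%) at least 2-fold lower and 0 higher. At equal totals these counts were 4 and 1, and the median was -0.72, or -0.45 at equal totals. Nr4a2 was at 26.4 against 104 CPM, Rel, an NF-kappaB subunit, at 195 against 505 CPM and Tnfaip3 (A20), which shuts that pathway off, at 366 against 818 CPM. Fos and Dusp1 were at 1432 against 2059.6 and 1493 against 1932 CPM, and Myc had the highest difference at 47.7 against 24.5 CPM.

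**Figure D4:**
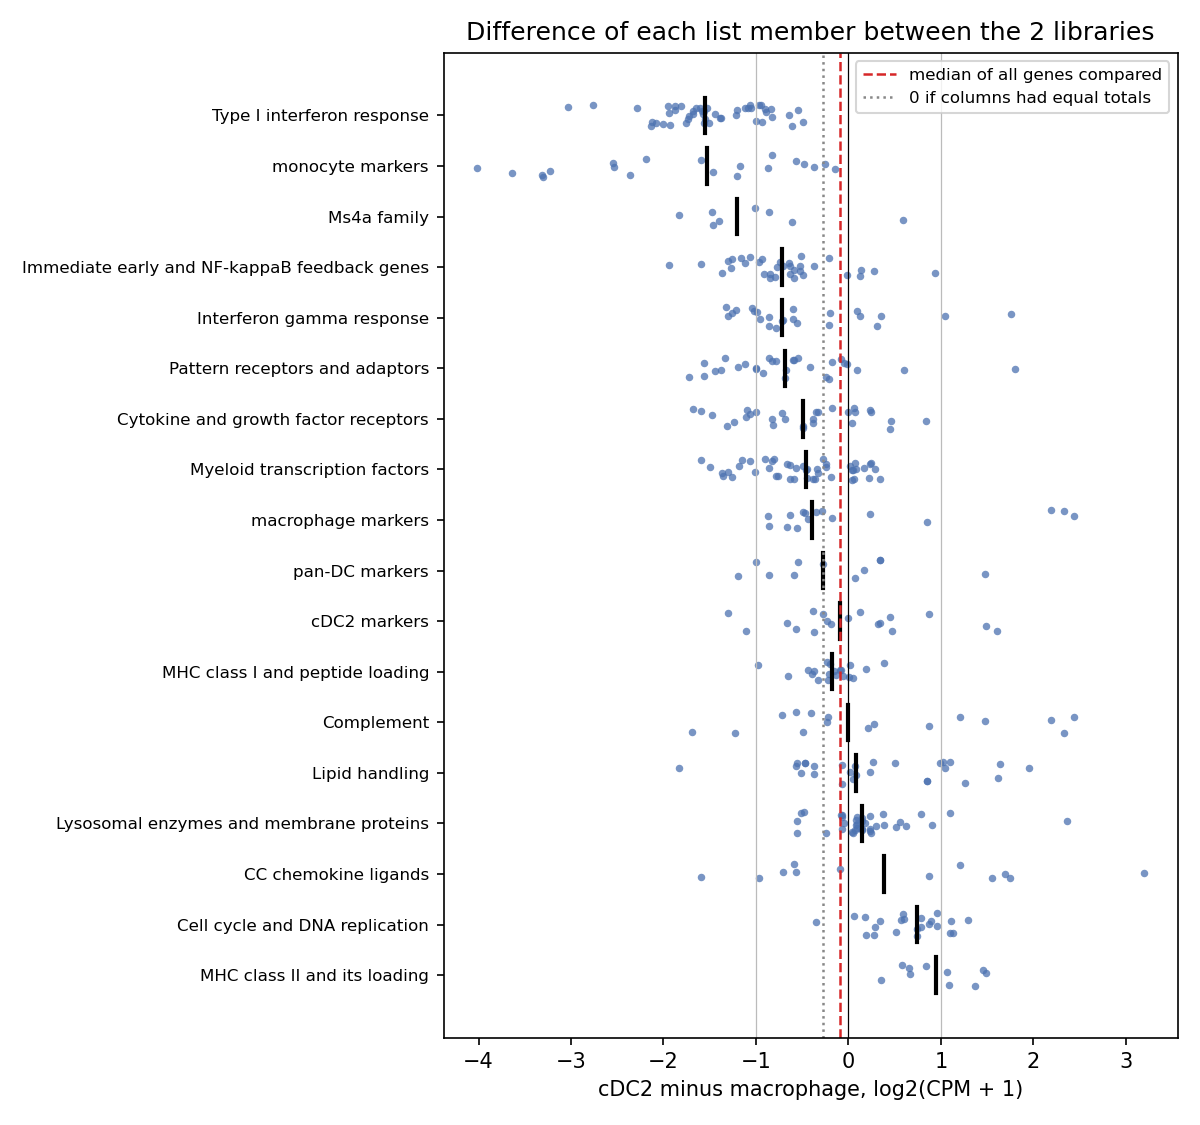
Difference between cDC2 and macrophages in log2(CPM + 1) for each compared member of 18 gene lists; black bars are list medians, the dashed red line the median of all 8141 genes and the dotted line the place of 0 if both columns had equal totals. The type I interferon response and the monocyte markers have medians of -1.56 and -1.53, and MHC class II genes one of 0.95.

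Genes of DNA replication and the cell cycle were higher in cDC2. Of 23 compared 4 (17.4%, beside 1.78% of all genes) were at least 2-fold higher and 0 lower. The median was 0.74, and at equal totals 11 were higher with a median of 0.99. The other 27 listed genes were below 10 CPM in both libraries. The helicase subunit genes Mcm5 and Mcm7 were at 55.4 against 24.8 and 37.3 against 16.7 CPM, Stmn1, a regulator of microtubules, at 22.2 against 8.47 CPM, and Uhrf1, which keeps DNA methylation through replication, at 31.7 against 14.3 CPM. Among genes of mitosis, Top2a was at 34.6 against 22.9 CPM, and Mki67 (Ki-67) was the 1 compared member below 0, at 25.1 against 32.3 CPM.

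Among genes of energy and protein production, those of the ribosome and of oxidative phosphorylation had medians above that of all genes. Cytosolic ribosomal protein genes had 1 of 82 at least 2-fold higher and 0 lower and a median of 0.48, or 10, 0 and 0.75 at equal totals. Nuclear subunits of oxidative phosphorylation had 1 of 76, 0 and 0.39, or 8, 0 and 0.66. Glycolysis and hypoxia genes had 16 members above and 16 below 0 as deposited, or 22 and 10 at equal totals. For them these values were 1 of 32, 0 and 0.04, or 4, 0 and 0.30, with Aldoa at 1103 against 601 CPM and Gapdh at 1884 against 1049 CPM. The difference decreased with exon length over all 7894 protein-coding genes compared. In the shortest of 5 equal groups (297 to 2731 bases of exon) the median was 0.15, and in the next 4 it was -0.01, -0.11, -0.17 and -0.27. Genes at least 2-fold lower were spread evenly over the 5 groups (86, 84, 86, 93 and 95), and those higher were not (52, 24, 28, 13 and 15). The median exon length of the ribosomal protein genes was 1775.5 bases, that of the oxidative phosphorylation genes 1696.5 bases, that of the glycolysis and hypoxia genes 4209 bases and that of the type I interferon genes 3780.5. With the median of the length group subtracted, a correction chosen after the values were seen, the medians were 0.36 for ribosomal protein genes, 0.31 for oxidative phosphorylation, 0.87 for the cell cycle and -1.41 for the type I interferon response. Under it 180 of the 195 named genes past 2-fold stayed past it.

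**Figure D5:**
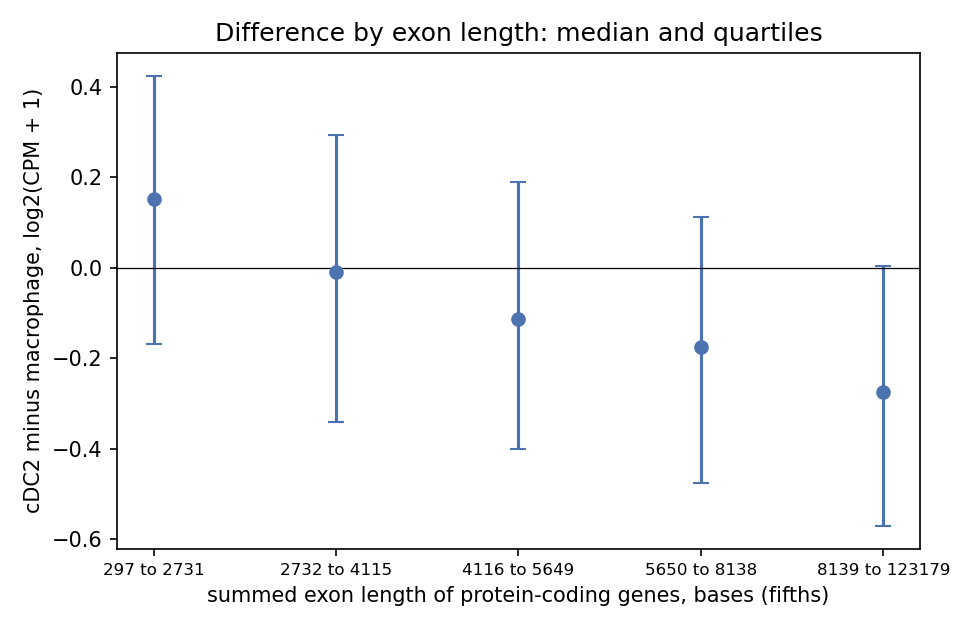
Median difference between cDC2 and macrophages in log2(CPM + 1), with quartiles as bars, for protein-coding genes in 5 groups of summed exon length in bases. The medians run from 0.15 in the shortest group to -0.27 in the longest.

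Noncoding RNA classes differed as well. Small nucleolar RNA was at least 2-fold lower in cDC2 in 6 of 6 entries compared (3 at equal totals) and scaRNA in 4 of 5 (4), and both ribozyme entries were lower at either scaling, among them Rmrp at 191 against 772 CPM. Of 3 snRNA entries 2 were at least 2-fold higher and 1 lower at either scaling. The higher 2, Gm22317 and Gm25679, had equal values in every library, at 15.3 against 3.58 CPM, and the lower, Gm23971, was at 9.701 against 37.1 CPM. Rn7sk, the RNA that holds back transcription elongation, was at 2164 against 7239 CPM. For these RNAs and for the ribosomal models, the cells and the preparation of the library cannot be told apart. The histone gene Hist1h4m had a listed value of 0 for cDC2, beside 11.6 CPM for macrophages. It belongs to a family of near-identical histone genes, so that reads may have been assigned to a copy.

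Markers of other cells of the tumour were mostly below 10 CPM in both libraries, and several differed between them. For T cells the summed level of 15 listed genes in the table was 121 against 76.8 CPM, of which Il7r and Cd4, also found on myeloid cells, made up most, and Cd3e was at 1.79 against 0.715 CPM. For NK cells the sum was 138 against 108 CPM, most of it from the receptor gene Klrk1 at 91.4 against 85.1 CPM. Ncr1 was at 0.6898 against 0.238 CPM, and the genes of the cytotoxic granule, Gzmb and Prf1, at 4.66 against 0.7696 and 3.23 against 0.4398 CPM, differences of 1.68 and 1.56. Klrb1b, a lectin-like receptor of NK cells that was among the 15 largest differences, was at 74.1, 115, 144 and 25.9 CPM in the 4 libraries, with Gm44511 over the same exons. Its order over the libraries was not that of Ncr1, which was at 1.92, 0.6898, 0.122 and 0.238 CPM. The immunoglobulin genes Ighm and Igkc were lower in cDC2, at 30.4 against 73.04 and 0.216 against 7.38 CPM, differences of -1.24 and -2.79. The part of RNA from lymphocytes in the differences was not tested. Of the mammary tumour genes, Cdh1 (E-cadherin), which some DC also carry, was at 416, 118, 195 and 87.9 CPM in the 4 libraries, Epcam was at 1.23 against 0.843 CPM and Krt8 at 1.29 against 1.12 CPM.

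Of the fibroblast markers, the collagens were higher in cDC2 and the others were not as a group. The summed level was 64.2 against 30.01 CPM over 9 of 12 listed genes in the table, of which 4 collagens gave 57 against 23.1 CPM and the other 5 genes 7.26 against 6.89 CPM. The 3 that could be compared were all collagens, with Col1a1 at 20.1 against 8.52 CPM, Col3a1 at 14.3 against 6.66 CPM and Col6a1 at 14.1 against 3.19 CPM. Pdgfra and Pdgfrb, the receptors that define fibroblasts, were at 0.862 against 0.128 and 1.72 against 2.29 CPM, with Fap at 0.129 against 0.8795 CPM and Acta2 at 0.776 against 1.301 CPM. Col6a3, among the 15 largest differences, was at 8.95, 13.99, 4.39 and 2.31 CPM in the 4 libraries. The 5 collagen genes that could be compared reached 10 CPM only in cDC2, so their place above 0 followed from that minimum. The other 14 collagen genes were below it in both libraries. The part of fibroblast RNA in the collagen differences was not tested. The endothelial receptor genes Kdr and Flt1 were lower in cDC2, at 110.2 against 239 and 50.4 against 164 CPM, while the endothelial Cdh5 and Pecam1 were at 1.49 against 2.55 and 54.2 against 57.5 CPM.

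The remaining genes among the 15 with the largest differences had no common role. Plet1, a surface protein of epithelia and of some DC, was at 78.7, 62.9, 97.98 and 10.8 CPM in cDC1, cDC2, CD103int DC and macrophages, and the signalling scaffold gene Ksr2 at 3.12, 16.4, 21.5 and 1.67 CPM. Cd81, a tetraspanin, was at 33.98, 101, 134 and 21.5 CPM, and Gpc1, the heparan sulfate proteoglycan glypican 1, at 19.7, 53.7, 57.9 and 11.9 CPM. On the macrophage side Plcb1, a phospholipase C, was at 0, 2.57, 3.205 and 34.2 CPM and Arhgef37, a putative guanine nucleotide exchange factor, at 0.163, 9.21, 5.71 and 85.3 CPM. Plet1, Cd81, Gpc1 and Plcb1 overlap exons of a gene on the opposite strand.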

How the data were processed

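The deposited table holds 1 expression signal per gene and library, which the authors scaled as CPM on library sizes adjusted by the trimmed mean of M values and filtered, per the file headers and the table's name. A directional kit was used on total RNA, per the labels' protocols. The sources used here do not give the aligner, counting program, strand setting or build. All 13976 identifiers matched GENCODE M21 (GRCm38), the source of coordinates and exon lengths. One read was worth 0.0216 CPM in cDC2 and 0.0183 CPM in macrophages, taken from the step between values. At a tolerance of 0.001 of a step, 71.3% and 70.9% of values were whole reads, so no count test was run. Intervals cover counting error only, and amplified reads are not independent molecules.

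Libraries were grouped by their labels. Differences used a pseudocount of 1 (pandas 2.3.3, numpy 2.4.6, scipy 1.17.1) and were checked on simulated data. Named were the 15 protein-coding genes at each end, up to 4 members per list and direction, the 2 highest of each list, cell type markers and short lists in full. A few genes that this rule names are not reported here. Other genes were named for their known role after their values were seen. The members and the 50 gene lists were chosen with earlier results of these data known. Promoters are from RefSeq (GRCm38.p6). The alternatives were 7 planned settings of scaling, pseudocount, minimum and gene set, and 2 added after seeing the data.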

Additional observations from a re-analysis of the deposited data

How the results depend on the processing

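Counts over all genes depended on the settings, and those of the leading classes less so. At least 4-fold higher in cDC2 were 20 genes as reported, 35 at equal totals, 11 with a pseudocount of 5 and 32 with protein-coding totals made equal. At least 4-fold lower were 46, against 29, 30 and 30. At least 2-fold higher were 145, against 348 at equal totals, 93 with a pseudocount of 5, 311 with a minimum of 1 CPM, 78 with a minimum of 30 CPM and 273 with protein-coding totals made equal. At least 2-fold lower were 489, against 238 at equal totals and 292 with protein-coding totals made equal. These counts came from the same values, and only the setting was changed. The protein-coding totals and the length correction were chosen after seeing the data.

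Over all 9 settings, members at least 2-fold lower numbered 30 to 38 in the type I interferon list and 11 to 14 among monocyte markers, and 4 to 6 MHC class II genes were at least 2-fold higher. Of 195 named genes past 2-fold, 145 stayed past 2-fold at equal totals. Of 100 list counts, 35 moved by more than 1.5 times at equal totals and 9 with median-ratio scaling. No paired analysis was possible because each population had 1 library. Depth limits genes of a few CPM, and the variation between animals and sorts is unknown.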

Other observations

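Genes linked to alternative activation by interleukin-4 and interleukin-13 were split between the libraries. Of 20 compared, 6 were at least 2-fold higher in cDC2 and 4 lower, and at equal totals 6 and 2. Alox15, a lipoxygenase, was at 16.04 against 3.99 CPM, and Retnla, a resistin-like protein, at 13.99 against 29.9 CPM. Arg1, arginase, was at 59.7 against 47.97 CPM and Mrc1, the mannose receptor, at 311 against 379 CPM. The higher members Ccl17, Ccl22, Ccl24, Mgl2 and Pdcd1lg2 also stand in other lists, and the lowest member was Chil3. Of the higher members, Ccl17, Ccl22 and Alox15 reached 10 CPM only in cDC2.

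Genes of adenosine and nucleotide receptors and of related surface enzymes held 3 of 12 at least 2-fold lower and 1 higher, or 1 and 3 at equal totals. The adenosine receptor genes Adora2a and Adora2b were at 11.1 against 35.6 and 20.9 against 47.2 CPM, while Cd38, which degrades NAD, was at 24.4 against 11.3 CPM. Among antioxidant genes, Gsr (glutathione reductase) was at 89.5 against 289 CPM and the cystine transporter gene Slc7a11 at 187 against 81.02 CPM. Vdr, the vitamin D receptor, was at 42.5 against 16.6 CPM, and Aldh1a2, which makes retinoic acid, at 1.62 against 1.61 CPM. The retinoic acid receptor gene Rara was at 62.9 against 124 CPM.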
